A study of Mus musculus with 4 samples.

Results

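The *Zscan4* cluster genes are the 9 rows of the deposited count table with the symbols *Zscan4a*, *Zscan4b*, *Zscan4c*, *Zscan4d*, *Zscan4e*, *Zscan4f*, *Zscan4-ps1*, *Zscan4-ps2* and *Zscan4-ps3*, out of 50559 genes listed. The rule took rows by symbol and used no measured value, and all 9 were among the 18586 genes with a mean of at least 10 reads over the libraries. Poly(A)+ RNA from E14 mouse embryonic stem cells (ESCs) was sequenced to ask how knockdown (KD) of *Ythdf2* alters the transcriptome and whether wild-type or mutant YTHDF2 restores it. YTHDF2 is a cytoplasmic reader of N6-methyladenosine (m6A), a mark on RNA, and promotes the decay of transcripts that carry it. There were 4 libraries, 1 per group. The control library (shScram+EV) had a scrambled hairpin and an empty vector, and the knockdown library (shYthdf2+EV) had a *Ythdf2* hairpin and an empty vector. The wild-type library (shYthdf2+DF2WT) and the mutant library (shYthdf2+DF2Mut) combined that knockdown with overexpressed YTHDF2, intact or unable to bind m6A. Values listed below without a group name follow this order. Per the study's methods, hairpins were delivered by lentivirus and the infected ESCs were selected with puromycin, so all 4 groups carried an integrated hairpin. The methods describe ESCs that carry a tdTomato transgene under a MERVL promoter, and the labels do not say whether these libraries come from such cells or which hairpin against *Ythdf2* was used. The study's methods describe biological replicates for each group, but the labels and the table give 1 library per group here, so no difference below was checked against the spread between replicates. Intervals in parentheses are 95% intervals from the number of read pairs, which cover counting error only and compare libraries rather than conditions.

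*Zscan4* genes encode proteins with a SCAN domain, through which such proteins pair, and a set of zinc fingers that bind DNA. In the mouse embryo they are switched on at the 2-cell stage, when the embryonic genome is first transcribed, and are silent again soon after. In cultured ESCs they are on in only a small share of cells at a time, which includes the cells in the 2C-like state. ZSCAN4 is known for telomere lengthening by recombination and for genome stability. DUX, a double homeobox factor, is a known activator of the family. Because the libraries are from bulk cultures, a change in the number of cells that express *Zscan4* and a change in the RNA per expressing cell cannot be told apart.

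The promoters of the family are shown first, because they show how alike its members are. RefSeq promoter windows on the GRCm38.p6 build were matched for 4 of the 9 members, and the 250 bases before each annotated start are given 5′ to 3′ on the gene strand, with the letters TATAAA in capitals.
Zscan4b: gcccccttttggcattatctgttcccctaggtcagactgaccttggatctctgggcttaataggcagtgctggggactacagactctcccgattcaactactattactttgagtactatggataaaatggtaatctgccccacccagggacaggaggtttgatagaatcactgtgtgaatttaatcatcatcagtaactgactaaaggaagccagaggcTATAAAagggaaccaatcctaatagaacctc
Zscan4c: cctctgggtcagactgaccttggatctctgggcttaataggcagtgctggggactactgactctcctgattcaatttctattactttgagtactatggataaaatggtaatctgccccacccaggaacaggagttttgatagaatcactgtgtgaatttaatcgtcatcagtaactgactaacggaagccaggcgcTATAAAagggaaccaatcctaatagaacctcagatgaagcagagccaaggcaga
Zscan4d: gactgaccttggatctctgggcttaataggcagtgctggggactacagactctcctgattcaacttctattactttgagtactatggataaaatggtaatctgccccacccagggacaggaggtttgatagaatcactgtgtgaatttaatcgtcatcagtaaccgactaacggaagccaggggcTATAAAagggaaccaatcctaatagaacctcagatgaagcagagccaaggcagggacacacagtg
Zscan4f: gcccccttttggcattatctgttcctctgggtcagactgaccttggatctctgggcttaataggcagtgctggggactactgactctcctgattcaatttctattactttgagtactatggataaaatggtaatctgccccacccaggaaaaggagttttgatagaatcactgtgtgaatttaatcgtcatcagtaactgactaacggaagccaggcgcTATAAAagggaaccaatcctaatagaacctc
These windows lie at chr7:10905051-10905300 (minus strand), chr7:11005495-11005744 (plus), chr7:11166149-11166398 (minus) and chr7:11397665-11397914 (plus). Aligned in pairs, they were 94.7% to 99.6% identical, with *Zscan4c* and *Zscan4f* the closest pair. Each held TATAAA, the core of a TATA box, once on the gene strand and not on the other. Its first base lay 31 bases before the annotated start in *Zscan4b* and *Zscan4f*, 54 bases in *Zscan4c* and 65 bases in *Zscan4d*. Of 32851 windows of the same length in the RefSeq table, 7.59% held these letters on the gene strand and 12.4% on either strand. The same promoter stretch is thus annotated with its start at different positions in different members.

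The transcripts were as alike as the promoters. Over the 36 pairs of the longest GENCODE vM21 transcripts of the 9 members, identity ranged from 94.1% to 99.3%, with a median of 96.5%. The closest pair was *Zscan4c* and *Zscan4-ps2*. RefSeq lists *Zscan4b*, *Zscan4c*, *Zscan4d* and *Zscan4f* as protein coding, *Zscan4a* as a transcribed pseudogene, and *Zscan4e* and the 3 ps members as pseudogenes. GENCODE gives all but *Zscan4a* a reading frame of 505 or 506 residues, so the name of a ps member does not by itself show that it lacks a frame. The letters GGAC, which form the centre of the most common m6A motif, were counted on the gene strand. They occurred 4 to 6 times per transcript, or 2.19 to 3.28 per kb, against a median of 3.57 per kb (quartiles 2.39 and 4.99) over 40384 genes with a transcript of at least 500 bases. All 9 members lay below that median and 5 lay below the lower quartile, with *Zscan4f* the highest. A GGAC is not evidence of a methylated site, and no m6A measurement was analysed here.

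On the mm39 build used in the table, the members spread over 819.9 kb of chromosome 7. Those on the minus strand were *Zscan4a* (10528168 to 10532992), *Zscan4b* (10634667 to 10638977), *Zscan4-ps1* (10799066 to 10803618), *Zscan4d* (10895570 to 10900075) and *Zscan4e* (11040296 to 11044609). Those on the plus strand were *Zscan4c* (10739672 to 10744474), *Zscan4f* (11131842 to 11136245), *Zscan4-ps2* (11248214 to 11252615) and *Zscan4-ps3* (11343235 to 11348039). Neighbouring members were 54.6 to 140.2 kb apart. The table counts 4 exon blocks for 8 members. For *Zscan4e* it counts a single block of 4314 bases over the whole locus, introns included.

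The cluster held 32 other annotated genes between the first and the last member, and few reads were counted for them. Reads that align to several places were left out, and the unique share of these genes was not measured, so low counts need not mean silence. No library had a read for 21 of them. Together the 32 genes had 53, 95, 54 and 75 reads, so the members gave 99.28% to 99.68% of the reads in the region. Only *Gm18204* and *Gm6909* had a mean of at least 10 reads. *Gm18204* had 15, 52, 29 and 46 reads, and its log2 ratio between the knockdown and the control was 1.58 (0.33 to 2.87). *Gm6909* had 14, 13, 10 and 13 reads. *Gm4903*, singled out after its values were seen, had 2, 22, 2 and 4 reads. The difference in counted reads between libraries in the region thus lay almost wholly in the *Zscan4* genes, with *Gm18204* and *Gm4903* also highest in shYthdf2+EV at low counts.

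**Figure D1:**
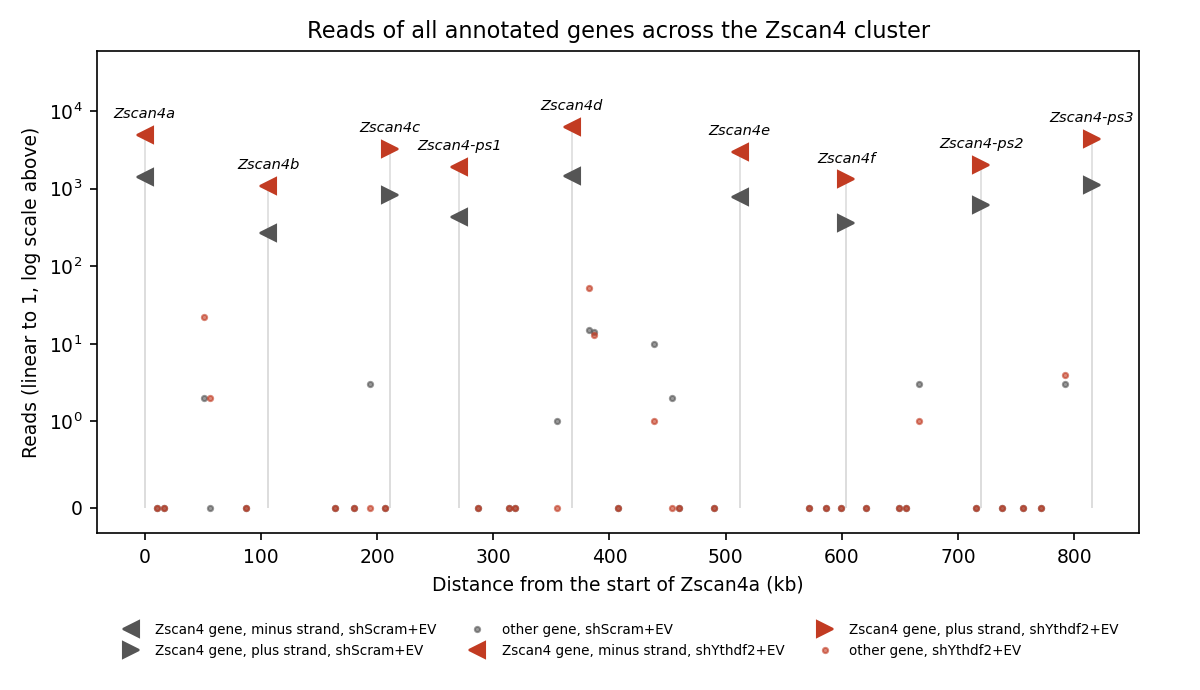
Reads (y axis, linear to 1 and logarithmic above) of every annotated gene of the cluster against distance from the start of *Zscan4a* (x axis, kb), in shScram+EV (grey) and shYthdf2+EV (red); triangles are *Zscan4* genes pointing along their strand and dots are the 32 other genes. Every *Zscan4* gene has more reads in shYthdf2+EV, and the other genes lie at or below 52 reads.

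Total counts ranged from 31533129 to 35742335 reads, and a count of 3 reads, taken as the floor, was at most 0.0949 CPM (counts per 1000000 scaled reads). *Ythdf2* had 2806, 662, 7661 and 6925 reads, so it was below the control in the knockdown library and above it with either construct. All 10 ESC markers had at least 10 reads in each library, with a summed level of 6181 to 6825 CPM. Markers of cells that ESC cultures can also hold were low. Summed over 6 genes each, they reached 10.2 to 16.5 CPM for primitive endoderm, 27.1 to 35.0 CPM for trophectoderm and 10.9 to 16.6 CPM for fibroblasts, and the fibroblast factor *Prrx1* was at 0 in every library. *Eomes* gave most of the trophectoderm sum, at 20.3 to 30.2 CPM, and *Thy1* most of the fibroblast sum, at 7.64 to 14.2 CPM. In shYthdf2+DF2Mut against shYthdf2+DF2WT, 3 of the 6 trophectoderm genes were higher. The other 3 were at least 2-fold lower (6.21% of all genes tested). The primitive endoderm sum, with 13.1, 16.5, 10.2 and 15.8 CPM, was also higher in the knockdown and mutant libraries. The part of these lists in the *Zscan4* differences was not tested. The reads of 7 Y-linked genes numbered 4, 672, 105 and 602, which puts the libraries in the same order as the summed *Zscan4* level. The libraries may therefore come from cell populations that differ in Y-linked expression, and with 1 library per group such a difference cannot be told apart from the hairpin and the construct in any ratio given here.

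Together the 9 members had 7292 reads in the control library, 28263 in the knockdown library, 8004 in the wild-type library and 23114 in the mutant library. Scaled by TMM (a factor that sets the bulk of genes level between libraries), these were 230.8 CPM (223.3 to 238.4), 786.2 CPM (773.3 to 799.3), 243.2 CPM (235.7 to 250.8) and 726.7 CPM (713.5 to 740.1). The shScram+EV and shYthdf2+DF2WT libraries were low and close to each other, and the shYthdf2+EV and shYthdf2+DF2Mut libraries were high. In the highest library, *Zscan4* genes gave 0.0791% of all reads counted.

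Levels of single members were compared per length, as FPKM (scaled CPM per kb of counted exon). *Zscan4d* was the highest in each of the 4 libraries, at 23.2 FPKM in the control, 87.5 in the knockdown, 27.3 in the wild-type and 76.0 in the mutant library. *Zscan4a*, listed as a transcribed pseudogene, came next with 20.0, 61.1, 18.6 and 57.2 FPKM. *Zscan4-ps3* was the next, with 15.6, 54.0, 15.2 and 48.9 FPKM. The 3 highest members thus comprise a gene that RefSeq calls coding and a pair it calls pseudogenes, and their intervals did not overlap in any library.

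*Zscan4c*, a coding member widely used as a reporter of the 2C-like state, had 11.6, 40.1, 13.7 and 34.6 FPKM. *Zscan4-ps2* had 10.5, 31.0, 12.1 and 30.7 FPKM. The intervals of *Zscan4c* and *Zscan4-ps2* overlapped in each library but shYthdf2+EV, and those of *Zscan4-ps3* and *Zscan4c* overlapped in shYthdf2+DF2WT. *Zscan4-ps1* had 6.82, 26.3, 6.92 and 21.8 FPKM. *Zscan4f* had 6.16, 20.0, 5.02 and 22.8 FPKM. *Zscan4e*, whose counted length includes introns, had 5.69, 19.3, 6.34 and 20.2 FPKM. These 3 members changed order between libraries, and the intervals of *Zscan4f* and *Zscan4e* overlapped in all 4. *Zscan4b* was the lowest in every library, at 4.87, 17.3, 4.82 and 15.5 FPKM, apart from all others by its interval in shYthdf2+DF2Mut but not in shScram+EV.

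**Figure D2:**
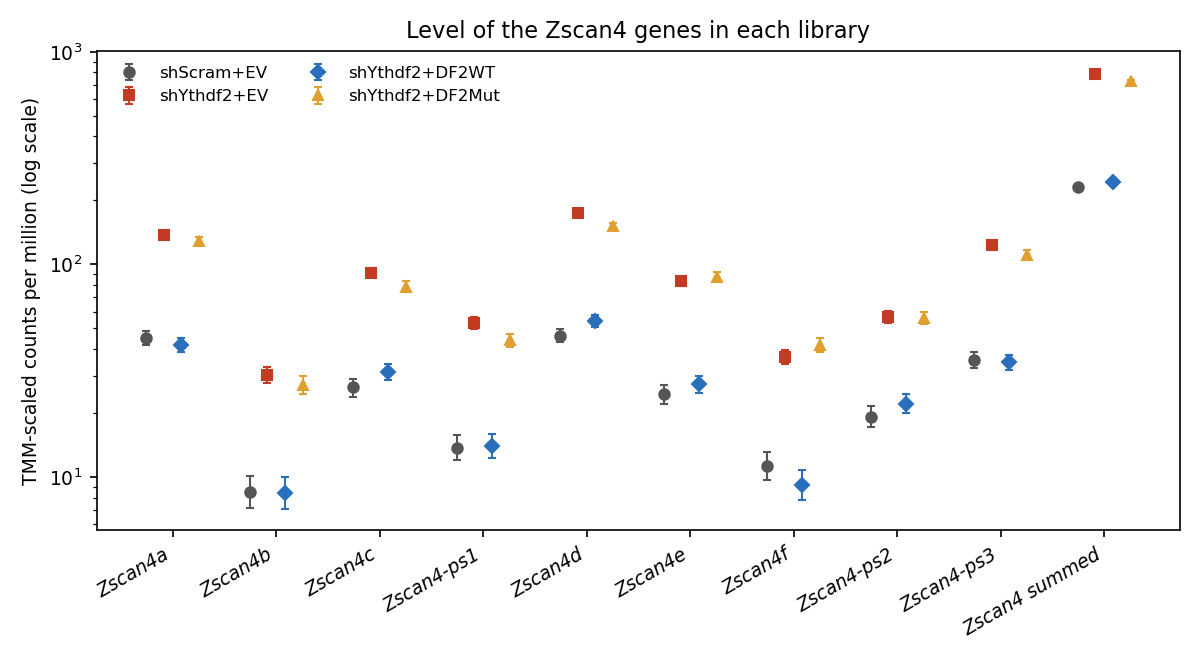
TMM-scaled CPM (log axis) of each *Zscan4* gene and of their sum in the 4 libraries, with 95% counting-error intervals; genes are in their order along the chromosome. For every gene the shYthdf2+EV and shYthdf2+DF2Mut points lie above the shScram+EV and shYthdf2+DF2WT points, and the sum lies at 786.2 and 726.7 against 230.8 and 243.2.

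The order of levels depends on which reads could be assigned. The authors' counting left out reads that align to several places, and in members this alike many do. Of all stretches of 150 bases, the read length, only 13.8% were unique to the gene among GENCODE transcripts in *Zscan4f*, 22.6% in *Zscan4e*, 31.6% in *Zscan4b*, 36.4% in *Zscan4-ps2* and 39.0% in *Zscan4c*. In the others the share was 63.6% (*Zscan4-ps3*), 74.9% (*Zscan4a*), 87.0% (*Zscan4d*) and 87.4% (*Zscan4-ps1*). The shared stretches lay almost wholly within the family, since *Gm45551* was the only gene outside it that held any of them. Of the stretches in *Zscan4f*, 69.0% also occurred in *Zscan4-ps2* and 56.8% in *Zscan4c*, and of those in *Zscan4b* 67.9% also occurred in *Zscan4e*.

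Divided by the number of unique stretches in place of the exon length, the order of the members changed. In shYthdf2+EV, *Zscan4e* then had the highest value, with 230.3 CPM per 1000 unique stretches, followed by *Zscan4f* with 157.7 and *Zscan4c* with 110.0. *Zscan4d* had 94.4, and *Zscan4-ps1* was the lowest with 32.5. The value of *Zscan4e* also contains reads from its counted introns. The levels of single members within a library are therefore uncertain, while the ratio of a member between libraries uses the same stretches on both sides.

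In the knockdown library every member was higher than in the control. All 9 of 9 were at least 2-fold higher in shYthdf2+EV than in the control, where 7.1% of all genes tested were at least 2-fold higher and 5.7% lower. The median log2 ratio of the members was 1.79, a fold of 3.45, against -0.0015 for all genes tested. The lowest was 1.56 (1.37 to 1.75) for *Zscan4-ps2*, which had 608 and 2038 reads, and the highest was 1.95 (1.73 to 2.17) for *Zscan4-ps1*, which had 434 and 1905. For coding *Zscan4b*, the 270 and 1089 reads gave 1.82 (1.55 to 2.11). The summed reads gave 1.77 (1.72 to 1.82). The members thus spanned a narrow range, from 2.95-fold to 3.86-fold, whatever their level or annotation.

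With wild-type YTHDF2 every member was lower than in the knockdown library. All 9 were at least 2-fold lower in shYthdf2+DF2WT than in shYthdf2+EV, where 5.61% of all genes tested were at least 2-fold lower and 5.15% higher, and their median log2 ratio was -1.72 against 0.0027 for all genes tested. *Zscan4f* had the lowest ratio, -1.99 (-2.26 to -1.74), with 1315 reads in shYthdf2+EV and 302 in shYthdf2+DF2WT. *Zscan4-ps2* had the ratio nearest to 0, -1.36 (-1.53 to -1.18), with 2038 and 727 reads. The summed reads gave -1.69 (-1.74 to -1.64). Of all 18586 genes tested, 185 had a lower ratio than *Zscan4f*.

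Set beside the control, the wild-type rescue library was close to it. No member was 2-fold apart between shYthdf2+DF2WT and shScram+EV, where 3.79% of all genes tested were at least 2-fold higher and 3.05% lower. Ratios ranged from -0.30 (-0.62 to 0.02) for *Zscan4f* to 0.24 (0.05 to 0.43) for *Zscan4c*, with 5 members higher, 4 lower and a median of 0.02. Intervals of *Zscan4c* and *Zscan4d* excluded 0. The summed reads gave 0.08 (0.01 to 0.14), and 0.21 when genes were centred within deciles of GC content.

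With the mutant the members stayed near the knockdown level. None was 2-fold apart between shYthdf2+DF2Mut and shYthdf2+EV, where 2.65% of all genes tested were at least 2-fold higher and 3.39% lower. The median log2 ratio was -0.14 and the summed reads gave -0.11 (-0.15 to -0.08), or -0.18 when centred by GC content. The lowest was *Zscan4-ps1*, at -0.27 (-0.41 to -0.13), with 1905 reads in shYthdf2+EV and 1398 in shYthdf2+DF2Mut. *Zscan4f*, with 1315 and 1326 reads, had 0.19 (0.03 to 0.35), and *Zscan4e*, with 2989 and 2777, had 0.07 (-0.04 to 0.18). These were the 2 members with the higher value in the mutant library, and 7 were lower. Intervals of 6 members excluded 0. Against the control, all 9 members were at least 2-fold higher in shYthdf2+DF2Mut (6.55% of all genes tested), with a median of 1.67 and a range from 1.52 (*Zscan4a*) to 1.89 (*Zscan4f*).

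The direct comparison was that of the constructs, whose libraries had 7661 and 6925 *Ythdf2* reads. All 9 members were at least 2-fold higher in shYthdf2+DF2Mut than in shYthdf2+DF2WT, where 5.39% of all genes tested were at least 2-fold higher and 6.21% lower. The median log2 ratio was 1.66, against -0.0115 for all genes tested, and the summed reads gave 1.58 (1.53 to 1.63). *Zscan4f* had 302 reads with the wild type and 1326 with the mutant, a ratio of 2.18 (1.93 to 2.45), and 121 of all genes tested had a higher one. The other 8 members lay between 1.34 (1.19 to 1.49) for *Zscan4c* and 1.68 for *Zscan4b*, and *Zscan4f* was the only member whose interval lay above 1.9. These comparisons share libraries, so they are given side by side and do not support one another.

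**Figure D3:**
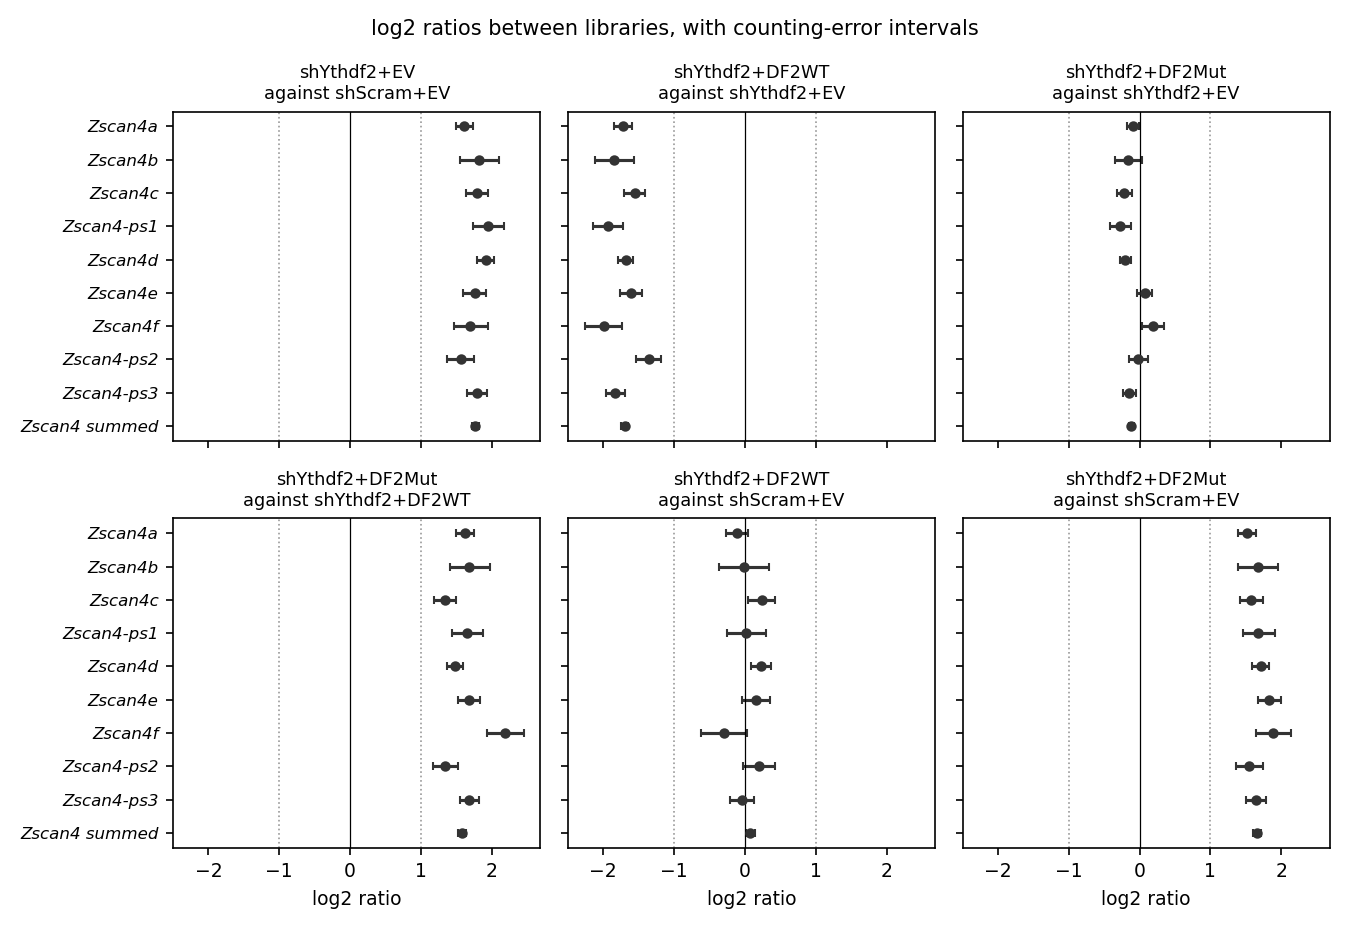
log2 ratios (x axis) of each *Zscan4* gene and of their summed reads in the 6 comparisons between libraries, with 95% counting-error intervals; solid lines mark 0 and dotted lines a 2-fold difference. Every gene lies beyond 2-fold in 4 panels, and within 2-fold in the panels of shYthdf2+DF2Mut against shYthdf2+EV and of shYthdf2+DF2WT against shScram+EV.

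The composition of the *Zscan4* reads does not depend on scaling between libraries, and it was similar in all 4, though some shares differed beyond counting error. *Zscan4d* gave 20.1%, 22.2%, 22.4% and 20.8% of the family's reads. *Zscan4a* gave 19.6% (18.3 to 20.9), 17.6% (16.9 to 18.2), 17.3% (16.1 to 18.4) and 17.8% (17.1 to 18.5), so its share was highest in the control. *Zscan4b* stayed between 3.47% and 3.85%, and *Zscan4-ps3* between 14.3% and 15.6%.

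*Zscan4f* departed most from the rest of the family between the mutant and the wild-type library. Its share was 4.88% (4.21 to 5.63) in the control, 4.65% (4.31 to 5.02) in the knockdown, 3.77% (3.20 to 4.41) in the wild-type and 5.74% (5.32 to 6.18) in the mutant library. Relative to the other 8 members, it was higher in the mutant than in the wild-type library by 0.63 on the log2 scale (0.37 to 0.90). The same relative difference was -0.27 (-0.43 to -0.11) for *Zscan4c* and -0.26 (-0.44 to -0.07) for *Zscan4-ps2*, the members with which *Zscan4f* shares most of its stretches. Their shares were highest in the wild-type library, at 12.8% for *Zscan4c* and 9.08% for *Zscan4-ps2*, where that of *Zscan4f* was lowest. In shYthdf2+DF2WT against shYthdf2+EV, *Zscan4-ps2* departed more, with a relative difference of 0.36 (0.18 to 0.55) beside -0.32 (-0.59 to -0.05) for *Zscan4f*. The same held in shYthdf2+EV against shScram+EV, with -0.23 (-0.42 to -0.03) beside -0.07 (-0.32 to 0.18). *Zscan4f* is also the member with the fewest unique stretches, and the part of read assignment in its departure was not tested.

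**Figure D4:**
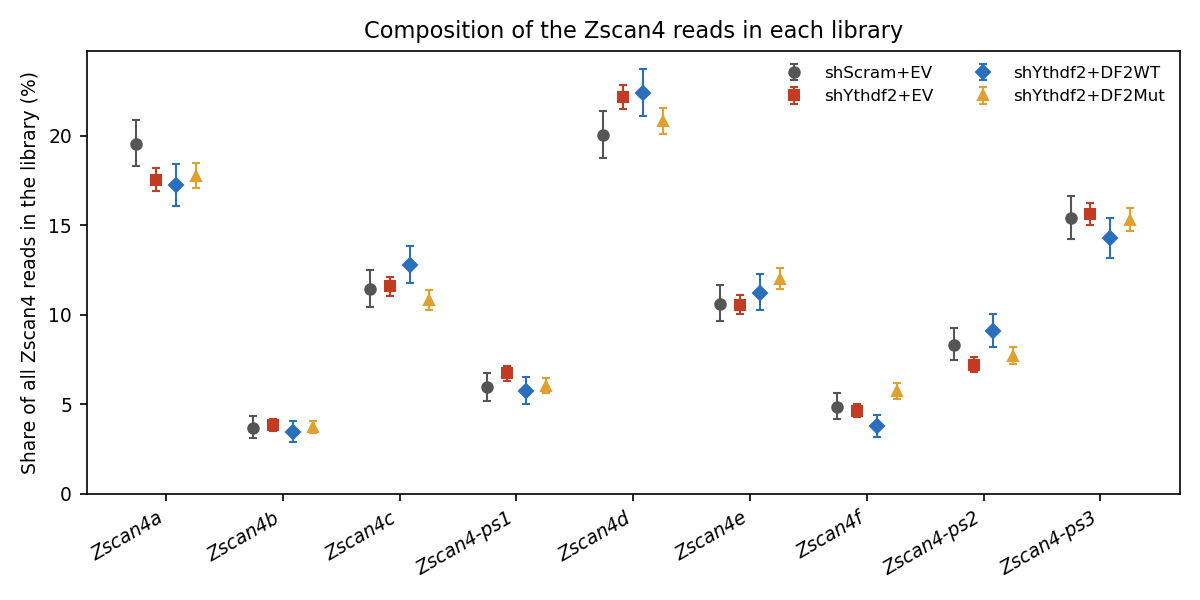
Share of all *Zscan4* reads (y axis, percent) given by each gene in the 4 libraries, with 95% counting-error intervals. Shares were similar across libraries, with *Zscan4d* at 20.1% to 22.4% and *Zscan4f* between 3.77% with the wild type and 5.74% with the mutant.

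Genes of the 2-cell embryo from elsewhere in the genome differed in the same direction as the cluster. Of 49 such genes listed, 43 were matched and 36 had enough reads. In shYthdf2+EV against shScram+EV, 32 were at least 2-fold higher, where 7.1% of all genes tested were at least 2-fold higher and 5.7% lower. *Obox6*, an oocyte homeobox gene, was the 1 that was at least 2-fold lower. The median of the 36 genes was 1.67 beside 1.79 for *Zscan4*. The medians lay further apart in shYthdf2+DF2WT against shYthdf2+EV, at -1.39 beside -1.72, and in shYthdf2+DF2Mut against shYthdf2+DF2WT, at 1.06 beside 1.66. In the latter comparison 20 of 36 were at least 2-fold higher, against 5.39% of all genes tested. The 4 most abundant genes of the list, *Gm4340*, *Gm2016*, *Gm5662* and *Gm8300*, had mutant to wild-type log2 ratios of 0.58 (0.48 to 0.68), 1.08 (0.94 to 1.23), 0.94 (0.79 to 1.09) and 1.10 (0.94 to 1.27). *Gm4340*, the most abundant, had 0.39 (0.27 to 0.51) in the knockdown against the control and 0.11 (-0.0027 to 0.21) in the wild-type against the knockdown library. Some genes of this list were displayed by the study for these same libraries, so the list is no independent evidence of direction.

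The zinc finger genes that share the SCAN domain but lie outside the cluster had ratios around 0. Of 27 tested, none was at least 2-fold higher in the knockdown than in the control library, beside 7.1% of all genes tested. *Zscan2* was at least 2-fold lower, as were 5.7% of all genes tested, and the median of the list was 0.06. Their median was -0.07 in shYthdf2+DF2Mut against shYthdf2+DF2WT, with none past 2-fold, beside 5.39% of all genes tested higher and 6.21% lower. *Zscan10*, a pluripotency factor of ESCs, had 4178, 5691, 4850 and 5169 reads, and its knockdown to control ratio was 0.26 (0.18 to 0.34).

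**Figure D5:**
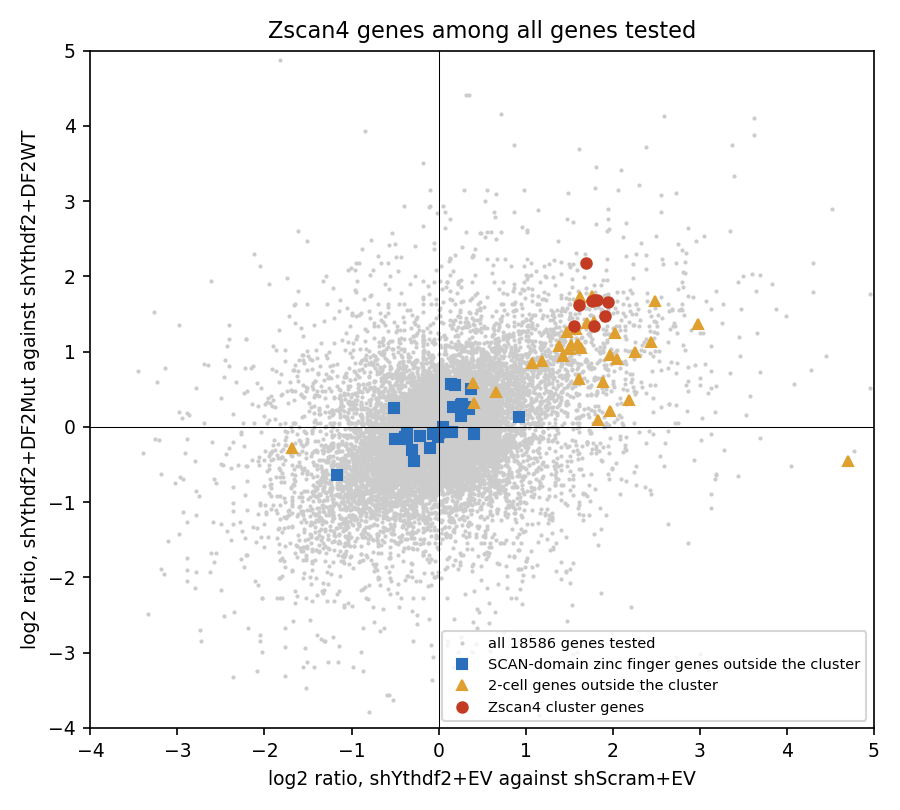
log2 ratio of shYthdf2+DF2Mut against shYthdf2+DF2WT (y axis) and of shYthdf2+EV against shScram+EV (x axis) for the 18586 genes tested (grey, 42 of them outside the plotted range), with the *Zscan4* genes (red), other 2-cell genes (yellow) and other SCAN-domain genes (blue). The *Zscan4* genes form a tight group between 1.56 and 1.95 on the x axis, with *Zscan4f* above the rest at 2.18, and the SCAN-domain genes surround 0.

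Among 27 regulators of the 2-cell program, 2 were at least 2-fold higher in the knockdown than in the control library, *Duxf3* and *Duxbl1*, a share of 7.41% beside 7.1% of all genes tested, and the median was 0.04. *Duxf3*, the *Dux* gene of the table, had only 10, 46, 16 and 18 reads. These may be undercounts, since reads that align to several places were left out and the unique share of *Duxf3* was not measured. The log2 ratio of *Duxf3* was 1.97 (0.59 to 3.77) in the knockdown against the control library, and -1.16 (-2.47 to -0.01) in shYthdf2+DF2Mut against shYthdf2+EV, where the *Zscan4* sum gave -0.11. In shYthdf2+DF2Mut against shYthdf2+DF2WT it had 0.21 (-1.33 to 1.79), an interval wide enough to hold the summed *Zscan4* ratio of 1.58. The 4 most abundant regulators, *Ncl*, *Trim28*, *Uhrf1* and *Rif1*, had knockdown to control log2 ratios between -0.05 and 0.06. Of these, *Rif1*, a factor of replication timing and telomeres, had 0.58 (0.53 to 0.62) in the mutant against the wild-type library and -0.40 (-0.45 to -0.36) in the wild-type against the knockdown library. In the mutant against the wild-type library the other 3 lay between -0.01 and 0.23.

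Genes of telomere maintenance and meiotic recombination, the processes ZSCAN4 is known for, were mostly within 2-fold, as were most of all genes tested. Of 17 tested, none was at least 2-fold higher in the knockdown than in the control library, where 7.1% of all genes tested were at least 2-fold higher and 5.7% lower. The cohesin gene *Smc1b* was at least 2-fold lower, at -1.35, and the median was -0.23. In shYthdf2+DF2Mut against shYthdf2+DF2WT, 10 were higher and 7 lower, with a median of 0.06. None was past 2-fold there, beside 5.39% of all genes tested higher and 6.21% lower. *Atrx*, a chromatin remodeller and the most abundant of the list, differed in the direction of the cluster, with 0.19 (0.13 to 0.24) in the knockdown against the control, -0.55 (-0.61 to -0.49) in the wild-type against the knockdown and 0.65 (0.59 to 0.71) in the mutant against the wild-type library. The ratios of *Atrx* and *Rif1* were not centred by GC content. The medians of GC deciles over the tested genes ranged from -0.25 to 0.20 in the wild-type against the knockdown library. In the mutant against the wild-type library they ranged from -0.32 to 0.29.

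The genes whose pattern over the 4 libraries was most like that of the summed members were sought by the root mean square difference of centred log2 CPM, over 13986 genes with a mean of at least 50 reads. With only 4 libraries this is a description of these libraries. The closest was *Fst*, which encodes the secreted activin inhibitor follistatin, at 0.047, with 59, 231, 70 and 188 reads. It was followed by *Rdh1*, a retinol dehydrogenase, at 0.066, *Tdpoz8* at 0.068, *Gm21037* at 0.069 and the pseudogene *Apoo-ps* at 0.070. The median over all genes was 0.850, and the members themselves lay between 0.051 (*Zscan4-ps3*) and 0.215 (*Zscan4f*).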

How the data were processed

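Per the file headers, the deposited values are read counts per gene made by the authors with featureCounts 2.0.3 on an mm39 RefSeq annotation. The submitters' processing notes name fastp 0.19.4, HISAT2 2.2.1, DESeq2 1.40.2 and mm10, so the builds named differ. Counting was unstranded and by read, not by pair. Reads that aligned to several places or overlapped several genes were dropped, which undercounts this family. The table's 4 libraries, matched by title, were all used.

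Counts were scaled by TMM (edgeR 4.0.16, R 4.3.3) on the 18586 genes with a mean of at least 10 reads. log2 ratios used a prior count of 0.5, and a 2-fold ratio was counted. Clopper-Pearson intervals (scipy 1.17.1) took 2 reads as a pair. Relative ratios within the family have exact conditional intervals. The ratio and interval code was tested on simulated data. No p-value was computed.

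Named were the members, *Ythdf2*, *Duxf3*, cluster genes with a mean of at least 10 reads, the 5 genes most alike, and up to 4 of the most abundant genes per list. One gene of a list is not reported here. Some genes that mark the end of a list's range or were counted past 2-fold are also named. The members and lists were chosen with earlier results of these data known. Alternatives covered scaling, prior count, filter, fold, GC content and the set of members summed.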

Additional observations from a re-analysis of the deposited data

How the results depend on the processing

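All 18 results (the summed log2 ratio, the members' median and the number past 2-fold, each in 6 comparisons) were recomputed under 150 alternatives in all. None changed direction where a result was past 2-fold, and 145 of the 150 values stayed inside the counting interval, or within 1.5 times for a count. For the members' median, the interval was the median of the single members' interval ends, which is wider than that of the sum. The 5 that fell outside were summed ratios after genes were centred within deciles of GC content, for the 16726 tested genes (90.0%) with a value. They became -1.56 for shYthdf2+DF2WT against shYthdf2+EV, -0.18 for shYthdf2+DF2Mut against shYthdf2+EV, 1.37 for shYthdf2+DF2Mut against shYthdf2+DF2WT, 0.21 for shYthdf2+DF2WT against shScram+EV and 1.60 for shYthdf2+DF2Mut against shScram+EV. Centring moved the medians too, although they stayed inside their wider intervals. They went from -1.72 to -1.58 for shYthdf2+DF2WT against shYthdf2+EV and from 1.66 to 1.45 for shYthdf2+DF2Mut against shYthdf2+DF2WT. The sum without *Zscan4e* was added after the data were seen. No paired analysis was possible because each group has 1 library. For the same reason no library could be left out. Reads shared between members are not in the counts, which limits single members more than their sum.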
